A study of Mus musculus with 15 samples.

Results

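The genes examined encode subunits of the BAF chromatin remodelling complexes, of the Polycomb repressive complexes PRC2 and PRC1, and the enzymes that remove the Polycomb mark from histone H3. A list of 46 genes was matched by symbol to probe sets that carry a single gene symbol, with the brightest probe set standing for each gene. There were 45 such genes among 19938 genes in the series. Cbx6, a chromodomain subunit of PRC1, was measured only by a probe set shared with Npcd and Nptxr and has no value here. A further 2 members, Actl6b and Cbx7, were too dim to test, which left 43.

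Kidney cells were sorted by fluorescence from newborn mice that carry the transgene Tg(Crym-EGFP)82Gsat, which places green fluorescent protein under the control of Crym, on a CD-1 background. Pups were raised by CD-1 foster mothers, and approximately 4 kidneys were pooled, digested with trypsin and sorted for each sample, with a gate that the labels do not describe. The 3 samples of postnatal day 4 (P4) carry the label renal vesicle, an early epithelial stage of the nephron, although the series' design text calls the cells of all 5 days cap mesenchyme. The 12 samples of P0, P1, P2 and P3, 3 for each day, are labelled cap mesenchyme, the nephron progenitor population. All 15 samples carry the transgene, so no sample without it serves as a control, and at P4 the compartment and the age change together. Whether pools of the same day shared a litter is not in the labels, and the p-values rest on the spread between pools, which may be technical.

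BAF complexes use the energy of ATP to slide or eject nucleosomes. They are built around one of the alternative ATPases Smarca4 (BRG1) and Smarca2 (BRM), and further subunits also come as families of which a complex takes one or another. PRC2 places methyl groups on lysine 27 of histone H3 through Ezh2 or Ezh1, and PRC1 ubiquitylates histone H2A and compacts chromatin. In nervous system development, exchange of BAF subunits such as Phf10 for Dpf1 or Dpf3 accompanies the exit from the progenitor state, and Ezh2 is typical of dividing cells while Ezh1 persists in resting ones. Both systems are known to balance self-renewal and differentiation in many progenitors, the kidney included.

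All values are log2 expression, and a difference of 1 on this scale is a doubling. Crym had a mean of 7.80 at P4 and 11.37 in cap mesenchyme, and the progenitor factor Six2 a mean of 8.44 at P4 and 10.59 in cap mesenchyme. The 5 samples without a replicate number in their titles, called first replicates here, formed a set distinct from the remaining 10, and 28 of the 43 members (5048 of all 11885 genes tested) differed between these array sets with the day in the model. Comparisons of P4 with cap mesenchyme, and tests of any difference over the 5 days, are therefore also given with a term for the array set in the model (array set block). Slopes and steps between neighbouring days are also given with a term for the replicate number (replicate block). The interquartile range of an array was 2.14 to 2.27 in the first replicates and 2.52 to 2.77 in the others. A block removes an offset between sets but not this difference in spread. P3 replicate 3 also stood alone for several members. Its Phc3 value was 11.15 against 9.65 to 10.41 in the other 14 samples, and its Pbrm1 value 11.01 against 11.52 to 12.06, while in the other probe sets of these genes it lay within, at or close to the range of the remaining samples. With 3 arrays a day, the array number bounds how small a difference can be resolved.

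For most members no change over the 5 days was resolved. In P4 compared with the mean of the 4 cap mesenchyme days, 1 of 43 members passed the test (limma, Benjamini-Hochberg adjusted p under 0.05 over 11885 genes), against 5.73% of all genes tested. That member, Phf19, was lower at P4, as were 2.32% of all genes, and no member was among the 3.41% that were higher. The median difference of the 43 members was -0.0011, beside 0.0041 for all genes tested, and the median absolute difference was 0.094, beside 0.108. For 30 of the 43 members the 95% interval of the difference lay within a 1.5-fold change in either direction, and with the array set block this held for 38. With that block, 4 members passed, with Bcl7a higher and Dpf3, Phf19 and Smarcd2 lower, against 11.5% of all genes (6.41% higher and 5.06% lower). No member had all its P4 samples above or all below the 12 cap mesenchyme samples, which 2.38% and 1.4% of all genes did.

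The slope over P0 to P3, still within the cells labelled cap mesenchyme, gave a similar count. Phf19 fell and was the only member of 43 to pass, against 3.13% of all genes (1.65% rising and 1.48% falling). With the replicate number as a block, 5 members passed, of which Jarid2 rose and Dpf3, Ezh1, Phf19 and Smarca2 fell, against 8.49% of all genes (4.01% rising and 4.48% falling). Of these 5, Dpf3, Ezh1, Jarid2 and Phf19 passed in all 15 fits that left out 1 sample each with the same block. Between P4 and P3 none of the 43 members passed, against 1.49% of all genes. Nor did any member have an unadjusted p under 0.05, against 7.63% of all genes. With the replicate block 0 of 43 members passed, against 3.55% of all genes. There 5 members had an unadjusted p under 0.05, against 14.7% of all genes. In the test of any difference over the 5 days Phf19 alone passed, against 5.37% of all genes, and with the array set block Bcl7a, Dpf3, Ezh1, Jarid2 and Phf19 did, against 11.7%. Of these, Dpf3, Jarid2 and Phf19 passed in all 15 fits without 1 sample. Ezh1 was lost without P0 replicates 1 or 2, any P1 sample, P2 replicate 3 or P4 replicates 1 or 3, and Bcl7a without any P1 sample, P2 replicates 1 or 3, or any P4 sample. Among these counts, the members' share exceeded that of all genes only for the slope with the replicate block.

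**Figure D1:**
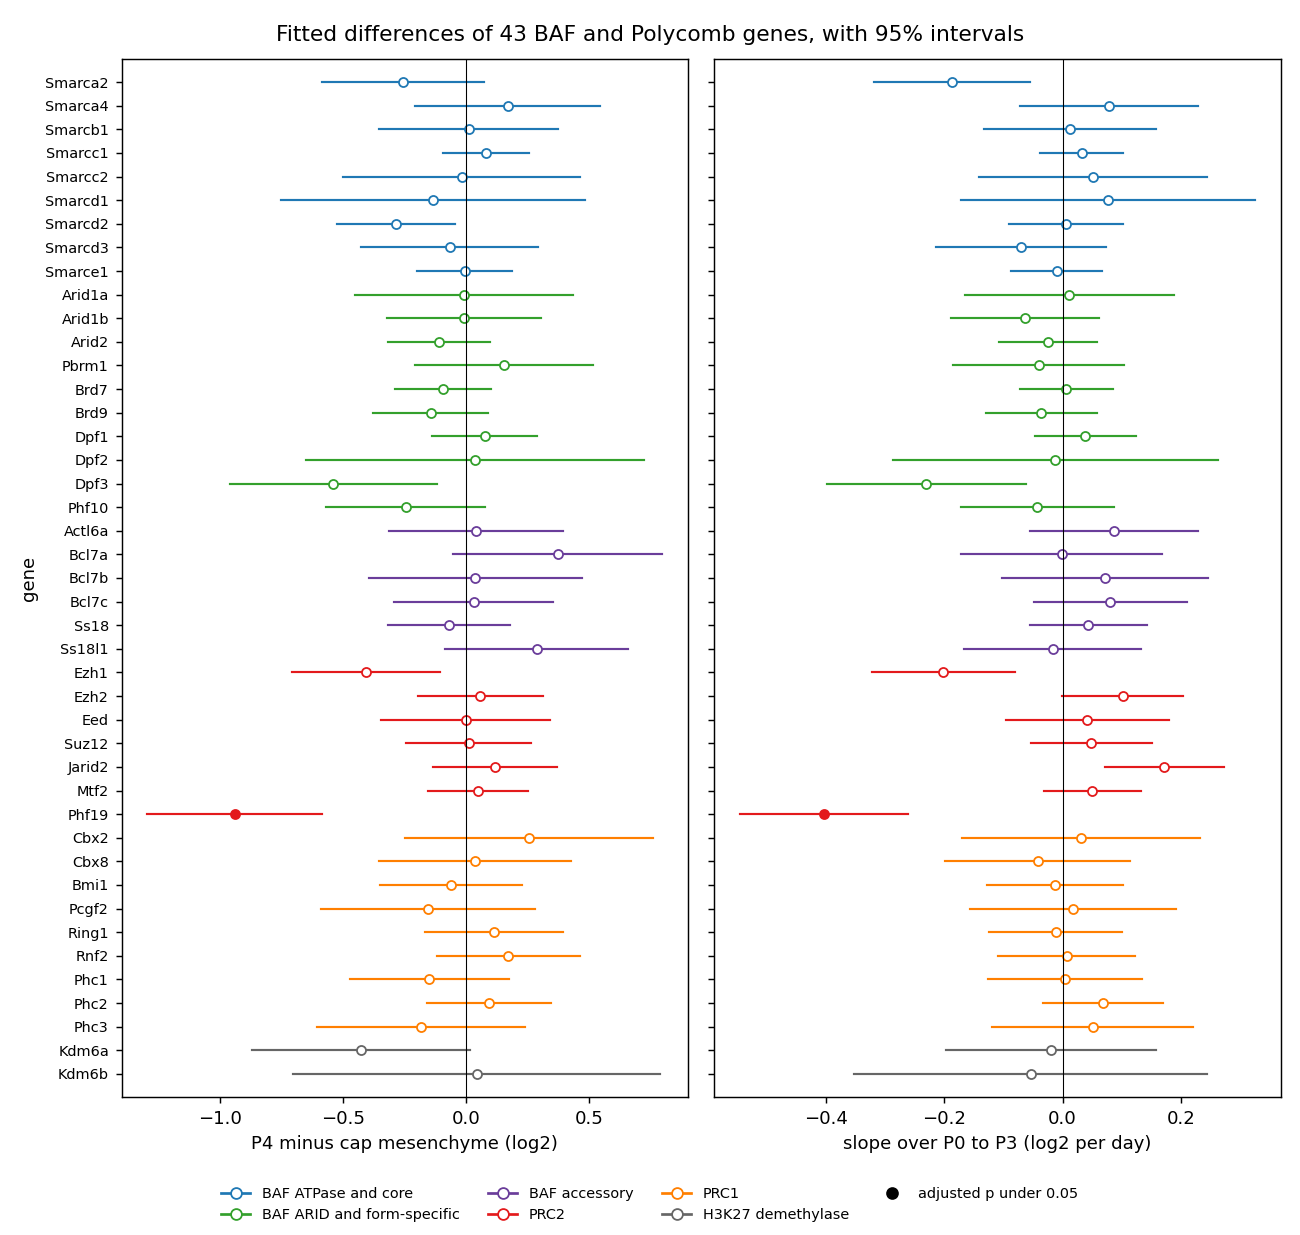
Fitted differences of the 43 members tested, grouped by complex, as P4 minus cap mesenchyme (left, log2) and as the slope over P0 to P3 (right, log2 per day). Circles are estimates of the fit without a block, lines are 95% intervals and a filled circle marks an adjusted p under 0.05. Phf19, at -0.94 and -0.40, is the only filled circle in either panel.

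Among the 7 PRC2 members, Phf19 changed most. It encodes a Polycomb-like protein, an accessory subunit that helps to bring PRC2 to its target sites. Its values were 6.80, 6.78 and 6.78 in the 3 P4 samples. In cap mesenchyme they were 7.81, 8.42 and 8.24 at P0, 7.75, 8.13 and 8.32 at P1, 7.35, 7.96 and 8.10 at P2, and 6.65, 6.98 and 7.06 at P3. The P3 samples already lay with the P4 samples, below all 9 samples of the earlier days. The mean was 6.79 ± 0.01 at P4 (SD, n = 3) and 7.73 over the cap mesenchyme days, a difference of -0.94 (SE 0.17), or 1.92-fold, with a limma adjusted p of 0.0025. The slope over P0 to P3 was -0.40 per day (SE 0.07, limma adjusted p = 0.0039). All 3 P4 values and P3 replicate 1 lay below 6.86, the level a gene had to exceed in 3 arrays to be tested, so Phf19 was tested only through its cap mesenchyme samples and its low values are poorly resolved. With these 4 values raised to 6.86, the estimate for P4 was 1.85-fold lower, a difference of -0.89, and the slope was -0.38 per day. No interval was computed for these estimates.

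Most of the fall of Phf19 lay between P2 and P3. P3 differed from P2 by -0.91 (95% interval -1.36 to -0.46). Its limma adjusted p was 0.143 without a block, where 0.143% of all genes passed. With the replicate block it was 0.0026 and Phf19 was the 1 member of 43 to pass, against 1.21% of all genes. Within replicates 2 and 3 alone the difference was -1.01 (limma adjusted p = 0.0117). P4 differed from P3 by -0.11, with a 95% interval of -0.56 to 0.34. Both lie at about the value of 6.86 below which a gene counted as dim, so a further fall would be poorly measured there. The calls in P4 against cap mesenchyme and in the slope held in all 15 fits without 1 sample (largest limma adjusted p 0.0214 and 0.0234).

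Promoters are shown for Phf19, the member that fell, and for the paired enzymes Ezh1 and Ezh2, whose within-array difference changed over P0 to P3. They are RefSeq sequence of build GRCm38.p6, with 250 bases before the annotated start and the first 30 after it, and capitals mark matches to the E2F motif (TTTCCCGC, TTTCGCGC, TTTGCCGC or TTTGGCGC, on either strand). They lie at chr2:34913947-34914226, chr11:101226434-101226713 and chr6:47595001-47595280 in the order below, all on the minus strand.
Phf19: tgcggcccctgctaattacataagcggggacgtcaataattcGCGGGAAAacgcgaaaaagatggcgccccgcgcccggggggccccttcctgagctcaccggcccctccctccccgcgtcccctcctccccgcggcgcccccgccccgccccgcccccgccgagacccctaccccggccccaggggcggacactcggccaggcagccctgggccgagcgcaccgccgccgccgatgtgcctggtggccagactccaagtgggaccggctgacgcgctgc
Ezh1: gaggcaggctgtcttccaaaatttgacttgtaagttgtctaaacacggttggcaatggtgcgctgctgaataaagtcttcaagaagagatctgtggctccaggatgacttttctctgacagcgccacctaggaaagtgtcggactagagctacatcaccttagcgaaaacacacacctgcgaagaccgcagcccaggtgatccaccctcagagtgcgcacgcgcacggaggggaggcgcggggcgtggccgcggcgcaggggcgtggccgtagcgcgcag
Ezh2: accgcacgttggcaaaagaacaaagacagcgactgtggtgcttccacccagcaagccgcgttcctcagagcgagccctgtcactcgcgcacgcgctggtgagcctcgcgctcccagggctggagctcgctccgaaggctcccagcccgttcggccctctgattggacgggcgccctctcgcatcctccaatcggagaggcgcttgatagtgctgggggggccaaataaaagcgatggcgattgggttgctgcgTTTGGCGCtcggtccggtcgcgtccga
The Phf19 promoter held 1 match, TTTCCCGC on the opposite strand at -208 to -201 from the start, and the Ezh2 promoter held 1, TTTGGCGC at 4 to 11. No match lay in the Ezh1 window. Over windows of 300 bases, of which the last 50 follow the start, 2.26% of 32851 RefSeq windows held a match. So did 6 of the 45 windows of the 39 members that had any, in Arid1a, Brd7, Ezh2, Phf19, Smarcd1 and Suz12. The members' windows had a median GC content of 66.0%, beside 52.7% for all windows, and these letters say nothing of binding.

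Ezh1, the methyltransferase of PRC2 that is typical of resting cells, had values of 7.81, 8.14 and 7.84 at P4. Its cap mesenchyme values were 8.50, 8.79 and 8.50 at P0, 8.41, 8.59 and 8.50 at P1, 7.94, 8.45 and 8.33 at P2, and 8.18, 8.23 and 7.63 at P3. The later samples were the lower ones, but P4 overlapped the cap mesenchyme samples of P2 and P3. The slope was -0.20 per day (SE 0.06), with a limma adjusted p of 0.0749 without a block and 0.0083 with the replicate block. P4 differed from cap mesenchyme by -0.41 (SE 0.14, limma adjusted p = 0.135), and by the same amount with the array set block (adjusted p = 0.0556). It passed with the replicate block (adjusted p = 0.0218), after quantile normalization (0.0314) and with array weights. It also passed without P3 replicate 3, where Ezh1 had its lowest value (-0.46, adjusted p = 0.0366).

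Ezh2, the methyltransferase typical of dividing cells, had values of 11.42, 11.08 and 10.88 at P4. In cap mesenchyme it had 11.18, 11.01 and 10.81 at P0, 11.02, 10.82 and 10.89 at P1, 11.11, 11.06 and 11.05 at P2, and 11.48, 11.29 and 11.08 at P3. The P1 samples lay below those of P2 and P3, and the P0 and P4 samples overlapped all other days. Its slope was 0.10 per day (SE 0.05, limma adjusted p = 0.408, and 0.0738 with the replicate block), with a sign opposite to that of Ezh1. The other core subunits had small slopes. Eed, which reads the methyl mark, had 0.04 per day, and Suz12, the scaffold of PRC2, 0.05 per day, both with limma adjusted p over 0.8.

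Jarid2, an accessory subunit that targets PRC2, went the other way from Phf19. Its values were 9.29, 9.66 and 9.42 at P4. In cap mesenchyme they were 8.96, 9.29 and 9.31 at P0, 9.08, 9.17 and 9.14 at P1, 9.08, 9.53 and 9.42 at P2, and 9.54, 9.84 and 9.68 at P3. The 3 samples of P3 lay above all 9 earlier ones, and the P4 samples fell among those of P2 and P3. Its slope was 0.17 per day (SE 0.05), with a limma adjusted p of 0.0694 without a block and 0.0028 with the replicate block. P4 exceeded cap mesenchyme by only 0.12 (95% interval -0.13 to 0.37), and lay below P3 by 0.23 without passing the test (adjusted p = 0.914). Mtf2, another Polycomb-like protein, differed by 0.05 at P4 (95% interval -0.16 to 0.25).

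**Figure D2:**
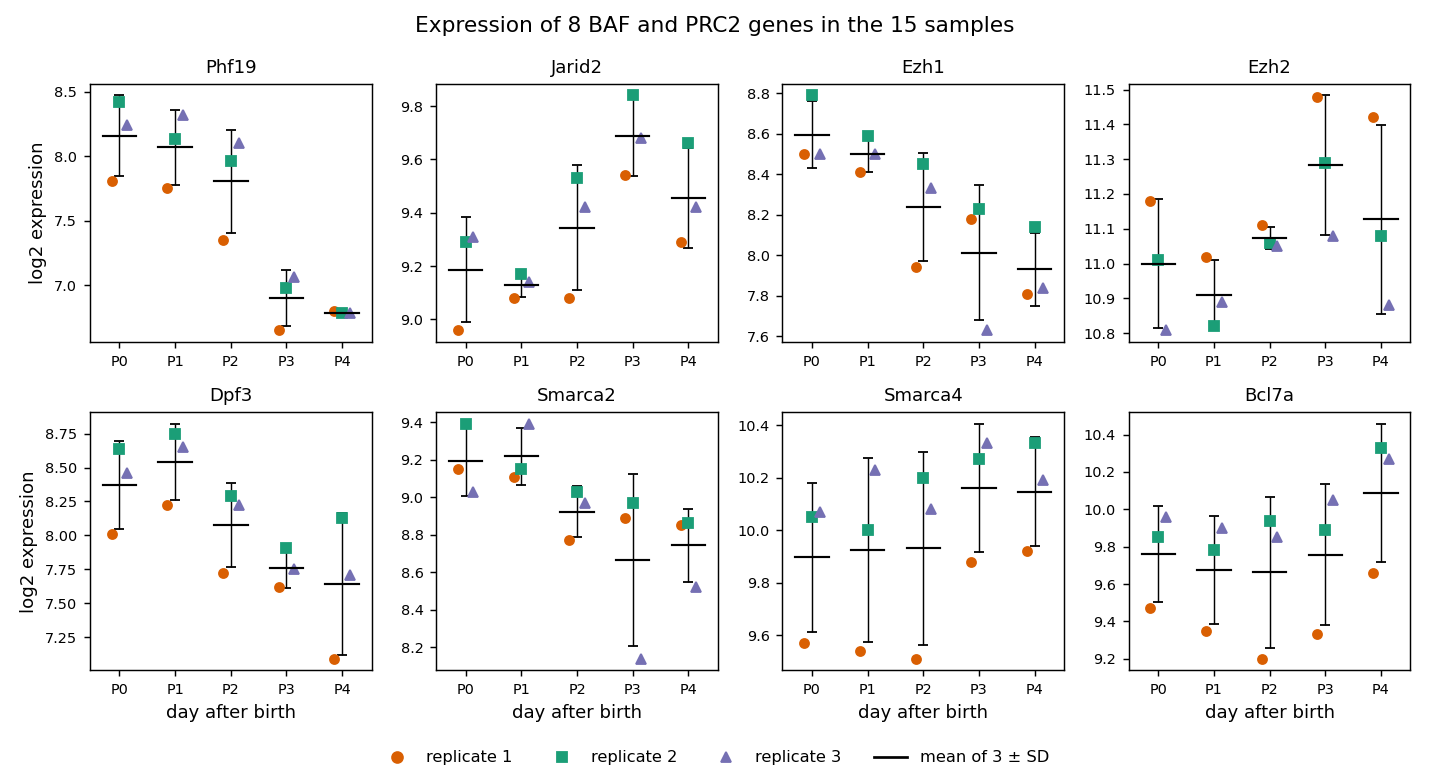
Log2 expression of 8 members in the 15 samples by day after birth, with a colour and shape for each replicate number, bars for the day mean and whiskers for the SD (n = 3). Axes differ between panels and do not start at 0. Phf19 drops between P2 and P3, Jarid2 is highest at P3, and the first replicates lie below the others for Dpf3, Smarca4 and Bcl7a.

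The ATPase and core subunits of BAF, 9 genes, stayed within -0.29 and 0.17 of cap mesenchyme at P4, and none passed without a block (smallest limma adjusted p 0.215). The core scaffolds Smarcc1 and Smarcc2, the core subunit Smarcb1 and the DNA-binding subunit Smarce1 differed by 0.08, -0.02, 0.01 and -0.01. Smarcd1 and Smarcd3, which link the complex to transcription factors, differed by -0.13 and -0.07. For 7 of the 9 the 95% interval stayed within a 1.5-fold change, and for all 9 with the array set block. Smarcd2, of the same family as Smarcd1, had 7.35, 7.82 and 7.59 at P4, and in cap mesenchyme ranged over 7.61 to 8.08 with a median of 7.90. Its difference of -0.29 (SE 0.11) had a limma adjusted p of 0.215, and of 0.0469 with the array set block. This last call was lost on leaving out any 1 of 11 samples, namely any but P0 replicate 2, P2 replicate 1, P3 replicate 3 and P4 replicate 2, with adjusted p up to 0.271.

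The estimated slopes of the ATPases themselves differed in sign over P0 to P3, but neither passed without a block. Smarca2, the BRM ATPase that is often more abundant in differentiated cells, had 9.15, 9.39 and 9.03 at P0, 9.11, 9.15 and 9.39 at P1, 8.77, 9.03 and 8.97 at P2, 8.89, 8.97 and 8.14 at P3, and 8.85, 8.86 and 8.52 at P4. Smarca4, the BRG1 ATPase on which many progenitors depend, had 9.57, 10.05 and 10.07 at P0, 9.54, 10.00 and 10.23 at P1, 9.51, 10.20 and 10.08 at P2, 9.88, 10.27 and 10.33 at P3, and 9.92, 10.33 and 10.19 at P4. All P2 samples of Smarca2 lay below all P1 samples, and the other neighbouring days overlapped. The P3 and P4 samples of Smarca4 overlapped those of the earlier days. The slope of Smarca2 was -0.19 per day (SE 0.06), with a limma adjusted p of 0.157 without a block and 0.0430 with the replicate block. The blocked call was lost without any 1 of 9 samples, namely each P0 sample, each P4 sample, P2 replicates 1 and 2 and P3 replicate 3, where Smarca2 had its lowest value. Without the last of these the slope was -0.11 per day (adjusted p = 0.1645). The slope of Smarca4 was 0.08 per day (SE 0.07, limma adjusted p = 0.801).

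The 10 subunits that set the form of the complex included the largest BAF change. Dpf3, which carries the paired PHD fingers that read acetylated and methylated histone H3 and is known from heart and muscle, had 7.09, 8.13 and 7.71 at P4. In cap mesenchyme it had 8.01, 8.64 and 8.46 at P0, 8.22, 8.75 and 8.65 at P1, 7.72, 8.29 and 8.22 at P2, and 7.62, 7.91 and 7.75 at P3. The P4 sample of the first replicates was the lowest of all, and the other 2 lay among the samples of P2 and P3. The difference at P4 was -0.54 (SE 0.20), or 1.45-fold, with a limma adjusted p of 0.165 without a block and 0.0026 with the array set block. Within replicates 2 and 3 alone it was -0.41 (adjusted p = 0.0984). The slope was -0.23 per day (SE 0.08), with adjusted p of 0.176 without a block, 0.0015 with the replicate block and 0.0185 within replicates 2 and 3 alone. Both blocked calls held in all 15 fits without 1 sample.

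The other form-specific subunits had smaller estimated differences at P4 than Dpf3. The alternative DPF genes Dpf1, a neuronal form, and Dpf2, the widespread form, differed at P4 by 0.08 and 0.04. Phf10, which stands in their place in the PBAF complex, differed by -0.24 (95% interval -0.57 to 0.08). Of the ARID subunits that define the canonical complex, Arid1a and Arid1b both differed by -0.01. The PBAF subunits Arid2, Pbrm1 and Brd7 differed by -0.11, 0.15 and -0.09, and Brd9, of the non-canonical complex, by -0.14. None of these passed with or without a block, in the comparison with P4 or in the slope.

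Of the 7 accessory BAF members, Actl6b, the neuronal actin-like subunit, was dim at a mean of 6.31 over the 15 samples, while its alternative Actl6a differed at P4 by 0.04. Bcl7a, a small subunit of uncertain function in the complex, had 9.66, 10.33 and 10.27 at P4. In cap mesenchyme it had 9.47, 9.85 and 9.96 at P0, 9.35, 9.78 and 9.90 at P1, 9.20, 9.94 and 9.85 at P2, and 9.33, 9.89 and 10.05 at P3. Within the first replicates, and again within the others, P4 was above every cap mesenchyme sample. This was so for Bcl7a alone of the 43 members and for 4.91% of all genes, while Smarcd2 and Phc1 of the members and 2.94% of all genes lay below in the same way. The difference of Bcl7a was 0.37 (SE 0.20), or 1.30-fold, with a limma adjusted p of 0.448 without a block and 0.0038 with the array set block, and that call held in all 15 fits without 1 sample. Its slope over P0 to P3 was -0.002 per day. Bcl7b and Bcl7c differed at P4 by 0.04 and 0.03. Ss18l1 (CREST), a neuronal alternative to Ss18, differed by 0.29 (adjusted p = 0.550, and 0.0856 with the array set block), and Ss18 by -0.07.

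PRC1 and the demethylases held no member that passed, with or without a block. The 9 PRC1 genes tested differed at P4 by -0.18 to 0.26, with a smallest limma adjusted p of 0.723, and their slopes ran from -0.04 to 0.07 per day. Ring1 and Rnf2, the ubiquitin ligases, differed at P4 by 0.11 and 0.17. Bmi1 and Pcgf2, their partners in canonical PRC1, differed by -0.06 and -0.15. The polyhomeotic subunits Phc1, Phc2 and Phc3 differed by -0.15, 0.09 and -0.18, the last with the divergent P3 sample given above. The dimmer probe set of Phc3 differed by 0.10, with the opposite sign. Of the chromodomain subunits that read the PRC2 mark, Cbx2 differed by 0.26 (95% interval -0.25 to 0.76) and Cbx8 by 0.04, and Cbx7 was dim at a mean of 6.68. Kdm6a, which removes methyl groups from lysine 27 of histone H3, had 8.70, 8.55 and 7.63 at P4 and in cap mesenchyme ranged over 8.32 to 9.10 with a median of 8.70. Only P4 replicate 3 lay below the cap mesenchyme samples, and the difference of -0.43 (SE 0.21) had an adjusted p of 0.372. Kdm6b, of the same function, differed by 0.04, with a wide 95% interval of -0.70 to 0.79.

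**Figure D3:**
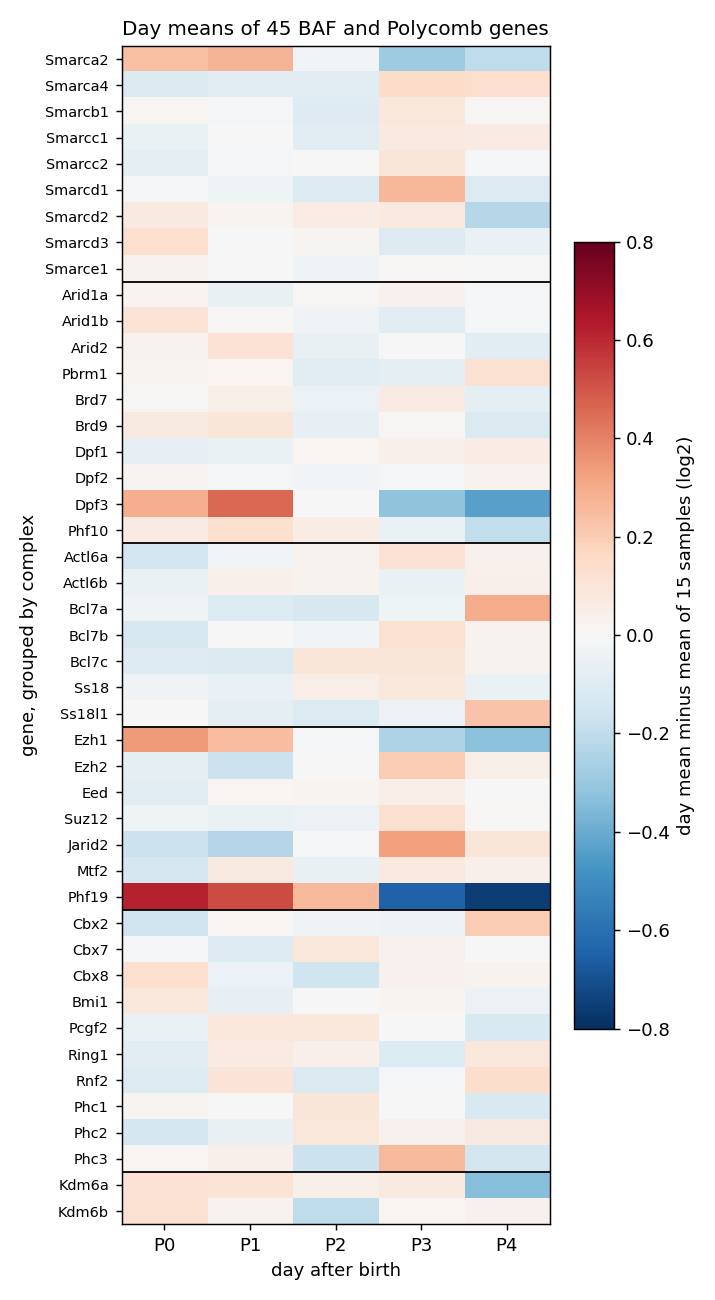
Day means of the 45 members measured, each minus its mean over the 15 samples (log2, colour), with days in columns and genes in rows grouped by complex. Phf19, Dpf3 and Ezh1 go from above to below their mean, and most other rows stay pale. Actl6b and Cbx7 are below the level required for testing.

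Exchange of alternative subunits was then read as the change of the log2 difference of both genes within an array. The level of one probe set cannot be set against that of another, so the size of such a difference has no meaning of its own and only its change between samples is described. There were 23 pairs, of which 20 could be tested. In P4 compared with cap mesenchyme none of the 20 passed (exact permutation test over samples, two-sided, 455 arrangements, smallest possible p 0.0022, adjusted over the 20 pairs). There were 6 with an unadjusted p under 0.05, each with an adjusted p of 0.154. These were Phf19 minus Mtf2 (-0.99, and -0.94 with dim Phf19 values raised to 6.86), Dpf3 minus Dpf2 (-0.58), Bcl7c minus Bcl7a (-0.34), Bcl7b minus Bcl7a (-0.33), Ss18l1 minus Ss18 (0.36) and Phc2 minus Phc1 (0.24). With the array set block none passed either, but there the smallest possible p is 0.00444, which no single pair could carry past the threshold after adjustment over 20. The pair of ATPases, Smarca2 minus Smarca4, changed by -0.43 at P4 (adjusted p = 0.418, exact permutation test). Phf10 minus Dpf2 changed by -0.28 (adjusted p = 0.549, and 0.0667 with the array set block, exact permutation tests).

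Over P0 to P3, a test added after the values had been seen, 2 of the 20 pairs passed. Both were PRC2 pairs. Ezh1 minus Ezh2 was -2.67, -2.22 and -2.31 at P0, -2.60, -2.23 and -2.39 at P1, -3.18, -2.61 and -2.71 at P2, -3.30, -3.06 and -3.46 at P3, and -3.61, -2.93 and -3.04 at P4. Within each replicate number the P3 value was below the 3 earlier ones. The slope was -0.30 per day (exact permutation p = 0.0011, adjusted p = 0.0180). Phf19 minus Mtf2 averaged -2.35, -2.65, -2.78, -3.82 and -3.89 from P0 to P4. Its slope over P0 to P3 was -0.45 per day (exact permutation p = 0.0018, adjusted p = 0.0180), and -0.43 with dim Phf19 values raised to 6.86. Most of this change was that of Phf19, with a slope of -0.40 per day beside 0.05 for Mtf2. Without P0 replicate 2 both pairs had an adjusted p of 0.0575, and without P3 replicate 2 that of Phf19 minus Mtf2 was 0.0523. With the days permuted within replicate numbers both had an adjusted p of 0.0043, and each held in all 12 tests without 1 sample.

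Smarca2 minus Smarca4 was -0.42, -0.67 and -1.04 at P0, -0.43, -0.85 and -0.84 at P1, -0.74, -1.17 and -1.11 at P2, -0.99, -1.31 and -2.19 at P3, and -1.07, -1.47 and -1.68 at P4. The P4 values lay below all those of P0 and P1 and overlapped those of P2 and P3, and P3 replicate 3 was lowest. Its slope of -0.27 per day had an adjusted p of 0.0745 over all arrangements and 0.0096 with days permuted within replicate numbers (exact permutation tests), and the second held in all 12 tests without 1 sample. Dpf3 minus Dpf2 averaged -1.73, -1.52, -1.98, -2.30 and -2.46. Its slope of -0.22 per day had an adjusted p of 0.193 over all arrangements and 0.0420 within replicate numbers, and the second was lost without any 1 of 9 of the 12 samples, namely P0 replicates 1 and 2, P1 replicate 3 and each sample of P2 and P3 (adjusted p up to 0.132). The other 16 pairs passed in neither test. Among them were Smarcc2 minus Smarcc1 (0.02 per day), Arid1b minus Arid1a (-0.08), Bmi1 minus Pcgf2 (-0.03) and Ring1 minus Rnf2 (-0.02).

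**Figure D4:**
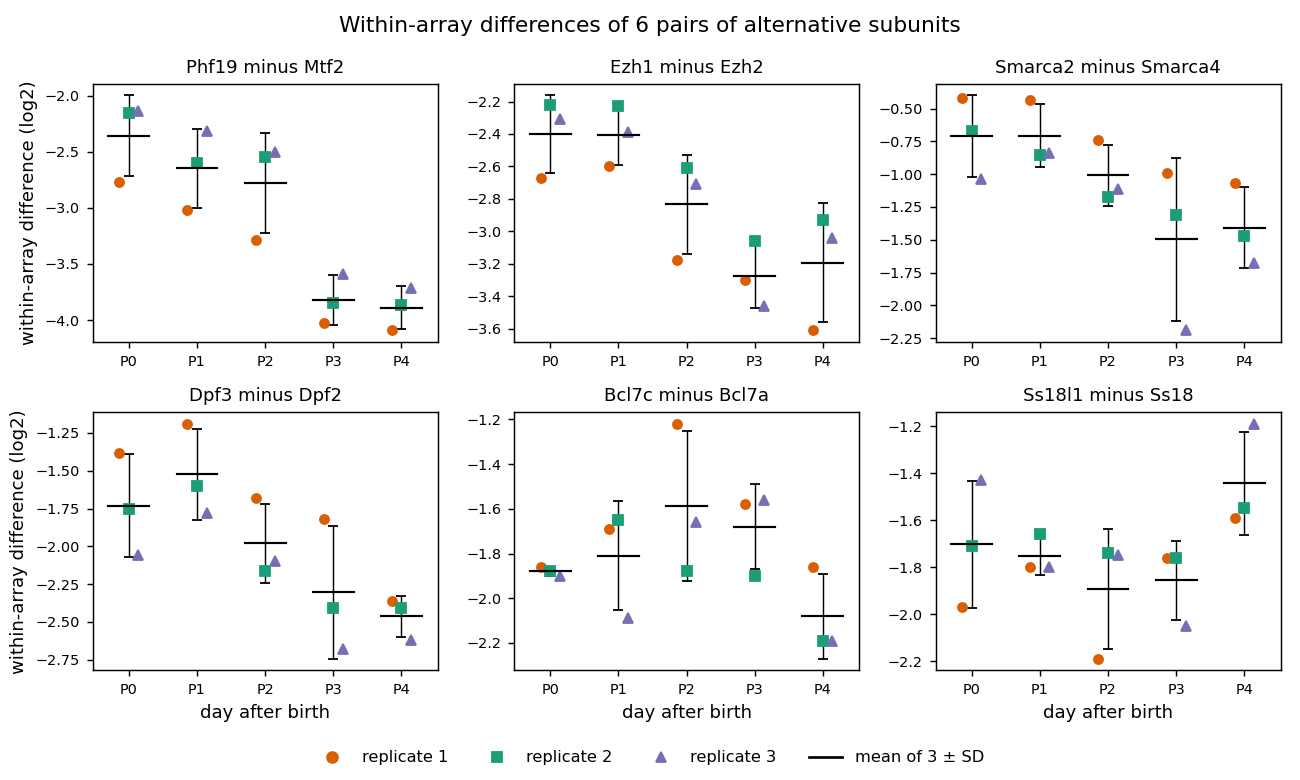
Within-array log2 differences of 6 pairs by day after birth, with a colour and shape for each replicate number, bars for the day mean and whiskers for the SD (n = 3). The height of a panel reflects the probe sets and is not a ratio of levels. The first 4 pairs are lower at P3 than at P0, while the last 2 part from the earlier days at P4 with overlap.

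Further subunits of these complexes, from lists that hold no member, held 1 gene that passed at P4. None of 5 BAF and none of 5 PRC2 genes passed in P4 against cap mesenchyme or in the slope, with or without a block. Of 15 genes of PRC1 and of the PR-DUB complex, which removes the PRC1 mark, Asxl3 was lower at P4, beside 2.32% of all genes. Its mean was 8.15 ± 0.04 at P4 (SD, n = 3) and 8.58 in cap mesenchyme (difference -0.43, limma adjusted p = 0.0320). With the array set block, Kdm2b (0.55) and Pcgf3 (0.33) were also called, as higher at P4, beside 6.41% of all genes. With the replicate block Kdm2b rose over P0 to P3 by 0.18 per day, beside 4.01% of all genes.

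Other markers moved over the same days. The mean log2 level of 6 stroma genes was 7.43 to 7.55 at P4 and 7.33 to 8.004 in cap mesenchyme, with day means of 7.99, 7.83, 7.68, 7.48 and 7.49 from P0 to P4. Foxd1 and Pdgfra of the 5 stroma genes tested fell in the slope, beside 1.48% of all genes. Foxd1 and Meis1 were lower at P4, beside 2.32% of all genes. The mean over 23 genes of S phase and mitosis was 9.29, 8.97, 9.45, 9.60 and 9.58 from P0 to P4, and 6 of them rose in the slope (13 with the replicate block), beside 1.65% of all genes (4.01% with the block). At P4 1 of the 23 was higher than in cap mesenchyme, and 9 with the array set block, beside 3.41% and 6.41% of all genes. Endothelial and neuron genes were dim throughout. Podocyte genes, of which 1 of 4 was bright enough to test, ranged over 6.75 to 6.86 at P4 and 6.23 to 6.62 in cap mesenchyme, and that gene, Podxl, was higher at P4 by 0.61 (limma adjusted p = 0.0170). In lists of tubule and ureteric bud genes, Tfap2b (distal tubule, 2.41), Gata3 (ureteric bud, 1.88) and Lrp2 (proximal tubule, 0.65) were higher at P4. These were 1 of 3, 1 of 3 and 1 of 4 genes tested, beside 3.41% of all genes. Of 2 erythroid and 2 macrophage genes tested none passed without a block. With the array set block Tyrobp (macrophage) and Hnf4a (proximal tubule) were also higher at P4, beside 6.41% of all genes. With that block Cd68 (macrophage) fell in the slope, beside 3.9% of all genes. Cap mesenchyme genes averaged 10.12, 10.02, 9.94, 9.06 and 7.77 and renal vesicle genes 7.92, 7.94, 8.63, 9.39 and 9.72 from P0 to P4. The part of these shifts in the changes of Phf19, Ezh1, Jarid2, Dpf3 and Smarca2 was not tested, and in sorted pools fewer cells of a type and less RNA per cell cannot be told apart.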

How the data were processed

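Transcripts of 15 sorted kidney samples were measured on 1-colour Affymetrix whole-transcript arrays after 1 round of amplification. The authors deposited log2 expression values for 35557 probe sets, and the labels name Affymetrix Expression Console as the software. For its version, summarization and background correction the sources used here give nothing. The values (2.38 to 13.76) were used as deposited, without further normalization. Probe sets with several gene symbols (1621) or none listed (12147) entered no test, and the probe set with the highest mean stood for a gene. A gene was tested if 3 or more arrays exceeded 6.86, the overall median, which left 11885 of 19938 genes.

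A model with a mean for each day was fitted to all 15 samples with limma 3.58.1 (R 4.3.3, eBayes, two-sided, Benjamini-Hochberg adjustment over the genes kept). Contrasts set P4 against the 4 earlier day means averaged, and took the least squares slope over P0 to P3, P4 against P3, adjacent days and an F test of any difference. Pairs of alternative subunits were tested by exact permutation (Python 3, scipy), with adjustment over the pairs. Promoter windows came from RefSeq, and 39 of the 45 members had one.

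The members and lists were chosen with earlier results of these data known, as were the blocks. Every member is named. Values in each sample are given for members that passed in a contrast and, beyond that rule and chosen after their values were seen, for those that passed only with a block, for both genes of the pairs Ezh1-Ezh2 and Smarca2-Smarca4, and for Smarcd2 and Kdm6a by range. Replicate numbers are those of the titles, with the unnumbered first replicate taken as 1. Deviations from day means correlated above 0.1 for all 18 same-numbered pairs within P0 to P3 (lowest 0.138) and for the 3 pairs of P3 and P4, so the numbers were taken to pair these samples. Over all 5 days it was 29 of 30 (lowest 0.0782), and the array set of first replicates served as the block for contrasts of P4 with cap mesenchyme. The fit was tested on simulated data.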

Additional observations from a re-analysis of the deposited data

How the results depend on the processing

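Phf19 stayed lower at P4, and kept a negative slope and a difference over the 5 days, past the threshold under every alternative run. The counts of members depended on how the array sets were treated. For P4 against cap mesenchyme the count of 1 became 4 with the array set as a block, 5 with the replicate number as a block, 4 after quantile normalization, 2 with array weights and 1 within replicates 2 and 3 alone. For the slope the count of 1 became 4, 5, 3, 2 and 2 under the same settings, and for any difference over the 5 days 5, 5, 4, 4 and 2. For P4 against P3 it was 0 throughout. Over all genes the counts moved likewise, with 681 for P4 against cap mesenchyme, 1363 with the array set and 1435 with the replicate number as a block, 372, 918 and 1009 for the slope, 177, 398 and 422 for P4 against P3, and 638, 1386 and 1483 for any difference (1613 with array weights). Without 1 sample the counts ran over 417 to 770 (lowest without P4 replicate 2), 183 to 381 (without P0 replicate 3), 99 to 187 (without P4 replicate 3) and 462 to 653 for the same comparisons. Median centring, other filters on dim genes and the mean of a gene's probe sets left the number of members that passed unchanged. Leaving out 1 sample gave 1 to 2 members for P4 against cap mesenchyme (2 without P3 replicate 3, with Ezh1 added) and 1 to 2 for the slope (2 without P2 replicate 1, with Jarid2 added), and changed no other count. With the array set as a block, leaving out 1 sample gave 3 to 6 members at P4. For pairs of alternative subunits at P4 the count was 0 under every alternative, but the smallest possible p (0.0022 without a block, 0.00444 and 0.008 with the array set and replicate blocks, 0.0222 within replicates 2 and 3) left little or no room to pass, and for their slope, added after the data were seen, 2 became 4 with the replicate block and 0 to 3 without 1 sample. Phc3 minus Phc1 at P4, which passed nowhere, was -0.03, and 0.11 with the mean of probe sets. The causes of these shifts were not tested. The pairing by replicate number is an assumption taken from the titles, which the correlations do not establish, and what the number marks is unknown. With 3 samples a day, differences of dim genes such as Phf19 at P3 and P4 are limited by signal near the floor.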
